A study of Drosophila melanogaster with 24 samples.

Results

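Mesodermal cells that overexpressed the Fox transcription factor CHES-1-like were compared with mesodermal cells that had lost it, which sets the highest dose of this factor in the series against the lowest. The 8 samples of the comparison, 4 biological replicates of each genotype, were chosen by their genotype labels from 24 RNA-seq samples of 6 genotypes, and no wild-type sample entered it. The overexpression embryos carried *twi-GAL4* and *UAS-2EGFP* over *UAS-CHES-1-like*. The loss-of-function embryos were homozygous for *Df(1)CHES-1-like1*, a null deficiency of the X-linked gene, and carried 1 copy of *twi-GAL4* with *UAS-2EGFP*. In both genotypes *twi-GAL4*, a yeast activator under the control of the mesodermal gene *twist*, switched on a GFP reporter, by which the cells were sorted with flow cytometry. *UAS-CHES-1-like* responds to the same driver, so the gene was overexpressed in the sorted lineage of embryos that kept their own copies, whereas the deficiency removed it from the whole embryo. All embryos were aged at 25 °C to stage 11 or early stage 12. The sample descriptions call the overexpression embryos late stage 11, a word that the descriptions of the loss-of-function embryos lack, so a small difference in age and the genotype cannot be told apart.

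Fox proteins bind DNA through a forkhead (winged helix) domain, and they act in many organs as switches of cell identity, division and metabolism. In the *Drosophila* embryo CHES-1-like and its relative Jumu are known from heart development, where both are needed to specify cardiac progenitors in the mesoderm and to divide these progenitors correctly. Their known cardiac targets are the fibroblast growth factor receptor gene *heartless* (*htl*), the Wnt receptor gene *frizzled* (*fz*) and the mitotic kinase gene *polo*. Earlier work of the authors reported that the pair activates *htl* and *fz* redundantly and regulates the activity of Polo.

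Total counts ranged from 22730404 to 62534670 per sample in overexpression and from 15197022 to 71242642 in loss-of-function. Annotated or named ribosomal RNA genes, 138 in number, took 22.2% ± 3.07 of the counts in overexpression and 30.8% ± 1.53 in loss-of-function (SD, n = 4 each). The difference gave p = 0.0286 in an exact permutation test (two-sided), which is the lowest value that the 70 possible arrangements can give. Overexpression replicate 1 stood apart from the other 3, with 26.6% of its counts on these genes and a TMM factor of 0.962 against 1.28 to 1.30. Genes with CR names and no annotated position also held a large share, *CR40641*, *CR40640* and *CR41607* among them. They took 25.4% ± 3.83 of the counts in overexpression and 29.4% ± 2.18 in loss-of-function (p = 0.114 in the same permutation test). Overexpression replicate 1 had 31.1% of its counts on them, and the other 3 had at most 24.04%. The scaling of the samples therefore mattered. With TMM factors the median log2 fold change of the genes tested was 0.03, and with plain library totals it was 0.55, so that differences are given relative to the TMM scale, and calls that library totals end or reverse are named. The 11 early mesodermal regulators examined, among them *twi*, *Mef2* and *tin*, all had counts in both groups, and none of them passed the criteria described next. Markers of other cell types had counts too, and all samples of the series are sorted cells. The presence of counts therefore cannot test the mesodermal label. In such bulk samples fewer cells of a type and less RNA per cell cannot be told apart. Levels are given in CPM, counts divided by the TMM-scaled total of the sample and multiplied to a common round total, with factors from the 8 samples, as mean ± SD of 4 samples where an error is shown, and the log2 fold change (log2FC) is overexpression over loss-of-function with its standard error (SE).

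*CHES-1-like* itself, at X:7682338-7709385 on the minus strand of the Release 6 genome, had 1167, 1225, 1480 and 1302 CPM in the 4 overexpression samples and 0.686, 1.19, 1.497 and 0.587 CPM in the 4 loss-of-function samples. The means were 1293 ± 136 and 0.990 ± 0.429 CPM, a log2FC of 10.60 (SE 0.23, FDR 3.2e-14). Between 14 and 37 counts per sample remained in loss-of-function. Scaled over all 24 samples, *CHES-1-like* had 1532 ± 159.6 CPM in overexpression, 1.14 ± 0.487 CPM in loss-of-function and 156 ± 3.41 CPM in wild-type, so that the wild-type level lay between the levels compared here. Reads of the transgene count toward the gene, and it overlaps 2 other annotated features, so the level is that of the gene and transgene together. The second Fox gene of the study, *jumu*, had 89.5 to 103 CPM in overexpression and 86.0 to 92.6 CPM in loss-of-function, and did not pass the test (log2FC 0.12, SE 0.08, FDR 0.25).

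**Figure D1:**
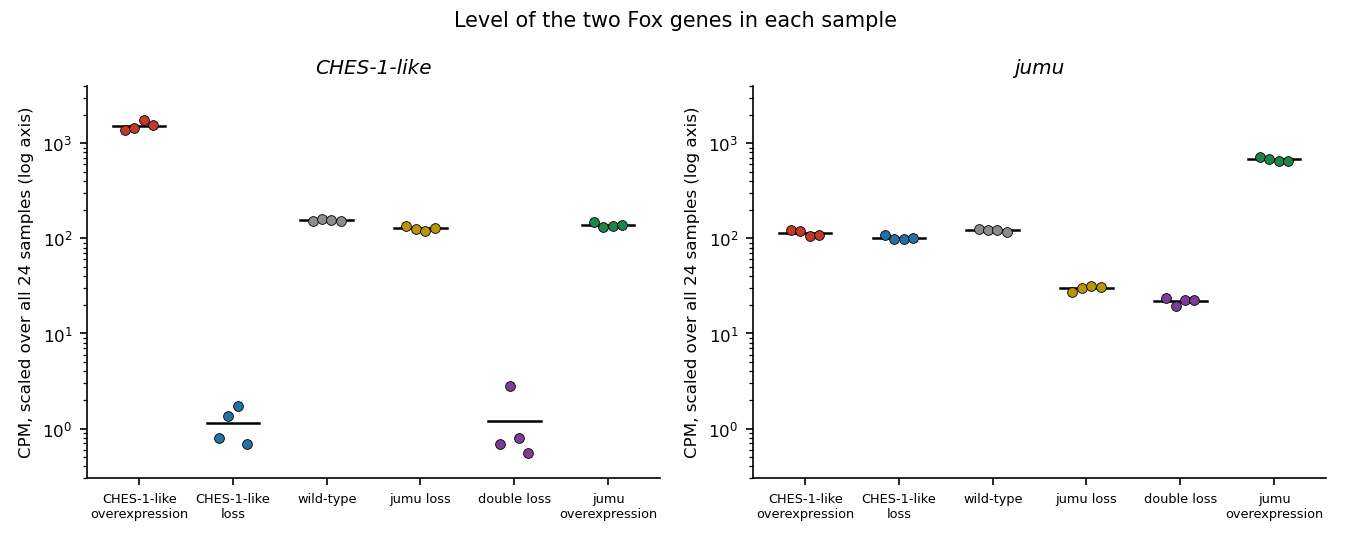
CPM of *CHES-1-like* (left) and *jumu* (right) in each of the 24 samples, scaled over all samples and drawn on log axes, with points for samples and bars for the mean of each genotype. The CHES-1-like overexpression samples lie at 1375 to 1748 CPM of *CHES-1-like* and the CHES-1-like loss-of-function samples at 0.683 to 1.72 CPM, while *jumu* stays between 98.8 and 122 CPM in both.

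The genes that flank *CHES-1-like* on the X were examined because one group carries a deficiency there. Of the 12 annotated genes within 30 kb, 7 were expressed above the filter on low expression. *ct*, which encodes the homeodomain protein Cut and ends 3479 bases from *CHES-1-like*, had 79.3, 55.0, 54.1 and 55.2 CPM in overexpression and 142, 132, 131 and 122 CPM in loss-of-function (log2FC −1.11, SE 0.11, FDR 8.4e-07). *NELF-B*, a subunit of the negative elongation factor of RNA polymerase II, and *CG12155* were also lower, with log2FC of −0.71 and −0.70. *Tom40*, the channel through which proteins enter mitochondria, was higher, at 115 ± 9.18 CPM in overexpression and 60.2 ± 3.25 CPM in loss-of-function (log2FC 0.93, SE 0.08). *Hira*, *Pdp* and *Rab39* did not pass, with log2FC of 0.15, 0.19 and −0.27, the last turning to 0.25 with library totals. The nearest genes on the 3′ side, *CR45665*, *CR45666* and *CR45667*, and the overlapping *CR43287* had no count in any loss-of-function sample and 0 to 7 counts in the overexpression samples, too few for a fold change, and *CG15478* had at most 5 counts in any sample. With library totals, *NELF-B* and *CG12155* no longer passed.

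Across all genes the 2 groups differed widely. One group carries the X deficiency and the other the *UAS-CHES-1-like* transgene. The dose of CHES-1-like and other differences between the strains therefore cannot be told apart. Genes were called at a false discovery rate (FDR) below 0.1 with a log2FC beyond 1 or −1 (stringent) or beyond 0.5 or −0.5 (relaxed). Of 12234 genes tested after the filter, 2463 or 20.1% passed the stringent criteria, 1369 (11.2%) higher and 1094 (8.94%) lower in overexpression. The relaxed criteria were passed by 4977 genes or 40.7%, 2570 (21%) higher and 2407 (19.7%) lower, with similar numbers in both directions on this scale. All 4 samples of one group lay on one side of all 4 of the other for 5725 genes (46.8%), and 2138 genes (17.5%) combined such separation with a stringent call. Fold changes beyond 10 were found for 245 stringent genes, 187 higher and 58 lower. The split by direction depended on the scaling, since library totals gave 5585 higher and 873 lower genes by the relaxed criteria, totals without the ribosomal RNA genes gave 4427 and 1193, and totals of protein-coding genes gave 3030 and 1948. In the sections that follow, "higher" and "lower" refer to genes that passed the relaxed criteria in overexpression relative to loss-of-function. Each count of such genes is to be read beside these 21% and 19.7% of all genes.

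**Figure D2:**
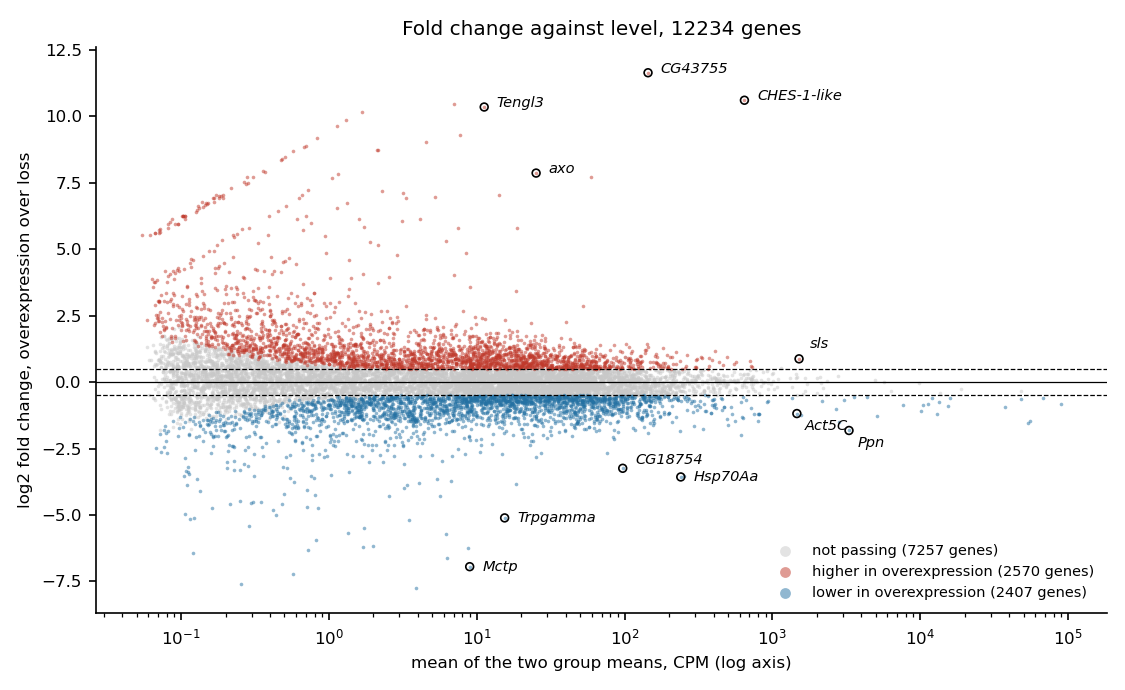
Log2 fold change, overexpression over loss-of-function, against the mean CPM of the 2 groups on a log axis for 12234 genes, with higher genes in red, lower genes in blue, others in grey, and dashed lines at 0.5 and −0.5. *CG43755* and *CHES-1-like* lie at the top with log2FC of 11.64 and 10.60, and *Mctp* near the bottom at −6.95.

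The gene with the largest difference among those above 10 CPM in one group was not *CHES-1-like* but *CG43755*, which had 291, 298, 286 and 278 CPM in overexpression and 0.0202, 0.255, 0.260 and 0.0635 CPM in loss-of-function (log2FC 11.64, SE 0.24, FDR 1.4e-14). Scaled over all 24 samples, it reached 329.8 to 355 CPM in CHES-1-like overexpression and at most 2.13 CPM in any of the 20 other samples. *Ir64a*, a member of the ionotropic receptor family of odorant receptors, had 12.3 to 16.5 CPM in overexpression and a single count in the 4 loss-of-function samples together. The pooled counts of *Ir64a* gave a ratio of 1937 with a 95% counting interval of 347 to 76537. *Tengl3*, an endonuclease G-like gene, had 21.2 to 23.3 CPM in overexpression and 2 counts in all of loss-of-function, a ratio of 1585 (439 to 13094). Both *Ir64a* and *Tengl3* were nearly silent elsewhere, at no more than 0.110 and 0.103 CPM in any sample of the other genotypes. For *CG43755*, *Ir64a* and *Tengl3* the raised dose and the chromosome that carries the transgene cannot be told apart.

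Other large differences involved genes that other genotypes also expressed. *CG42324* had 150, 107, 112 and 104 CPM in overexpression and 0.787, 0.936, 0.390 and 0.333 CPM in loss-of-function (log2FC 7.71, SE 0.22), and its wild-type level of 106 to 108 CPM on the 24-sample scale was near that in overexpression, 123 to 177 CPM. *axo* followed the same order, with 50.3 ± 1.45 CPM in overexpression and 0.197 ± 0.151 CPM in loss-of-function (log2FC 7.86, SE 0.19), and with 41.4 to 44.9 CPM in wild-type on the 24-sample scale. *kek1*, a Kekkon-family transmembrane protein known as an inhibitor of the epidermal growth factor receptor, had 36.7 ± 4.38 CPM in overexpression and 0.595 ± 0.171 CPM in loss-of-function (log2FC 5.81, SE 0.15). The paired cytochrome P450 genes *Cyp4p2* and *Cyp4p1* were higher by log2FC of 7.02 and 6.97. *CCHa1-R*, the receptor of the neuropeptide CCHamide-1, had 14.4 to 17.0 CPM in overexpression and 3 counts in all of loss-of-function, a ratio of 705 (241 to 3419). On the 24-sample scale *CCHa1-R* had 17.2 to 20.1 CPM in CHES-1-like overexpression and 19.8 to 27.6 CPM in the double loss-of-function samples, which lack CHES-1-like as well. *CG2233* and *Su(Ste):CR42418* completed the 12 largest with log2FC of 5.78 and 5.31, the second being one of a repeated family whose reads are uncertain.

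Among the lower genes *Mctp*, a membrane protein with C2 domains, had 0.274, 0.223, 0.127 and 0.0746 CPM in overexpression and 18.4, 15.4, 18.9 and 18.3 CPM in loss-of-function (log2FC −6.95, SE 0.21, FDR 8.5e-13). *Trpgamma*, a cation channel of the TRP family, had 0.823 to 0.907 CPM in overexpression and 29.2 to 31.1 CPM in loss-of-function (log2FC −5.11, SE 0.10). On the 24-sample scale the *Trpgamma* level was at most 2.10 CPM in every sample outside CHES-1-like loss-of-function. The X-linked genes *Cngl*, *CG11697*, *Frq2* and *CG14205* were lower by log2FC of −6.61, −6.25, −5.71 and −2.98, and all 4 were at 7.52 CPM or more in each of the double loss-of-function samples, which share the X deficiency, and at most 2.22 CPM in the samples of the other 4 genotypes. For these 4 genes the deficiency chromosome and the loss of CHES-1-like cannot be told apart. *Aplip1*, an adaptor of kinesin transport, had 0.530 ± 0.242 CPM in overexpression and 10.7 ± 1.56 CPM in loss-of-function. *Arc1*, whose protein forms virus-like capsids that carry RNA, had 2.36 ± 0.202 CPM in overexpression and 34.5 ± 1.98 CPM in loss-of-function, and the pseudogene *CR10102* was lower by a log2FC of −3.71. *CR10102* lies close to *Arc1* on the same strand, and whether they change independently was not tested. On the 24-sample scale *Arc1* had 36.6 to 41.6 CPM in the samples of the present loss-of-function group, 147 to 159 CPM in those lacking *jumu*, 136 to 158 CPM in those lacking both genes and 17.5 to 21.3 CPM in wild-type. *CG18754* closed the group at 18.5 ± 1.07 CPM in overexpression and 176 ± 10.7 CPM in loss-of-function (log2FC −3.24, SE 0.08).

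**Figure D3:**
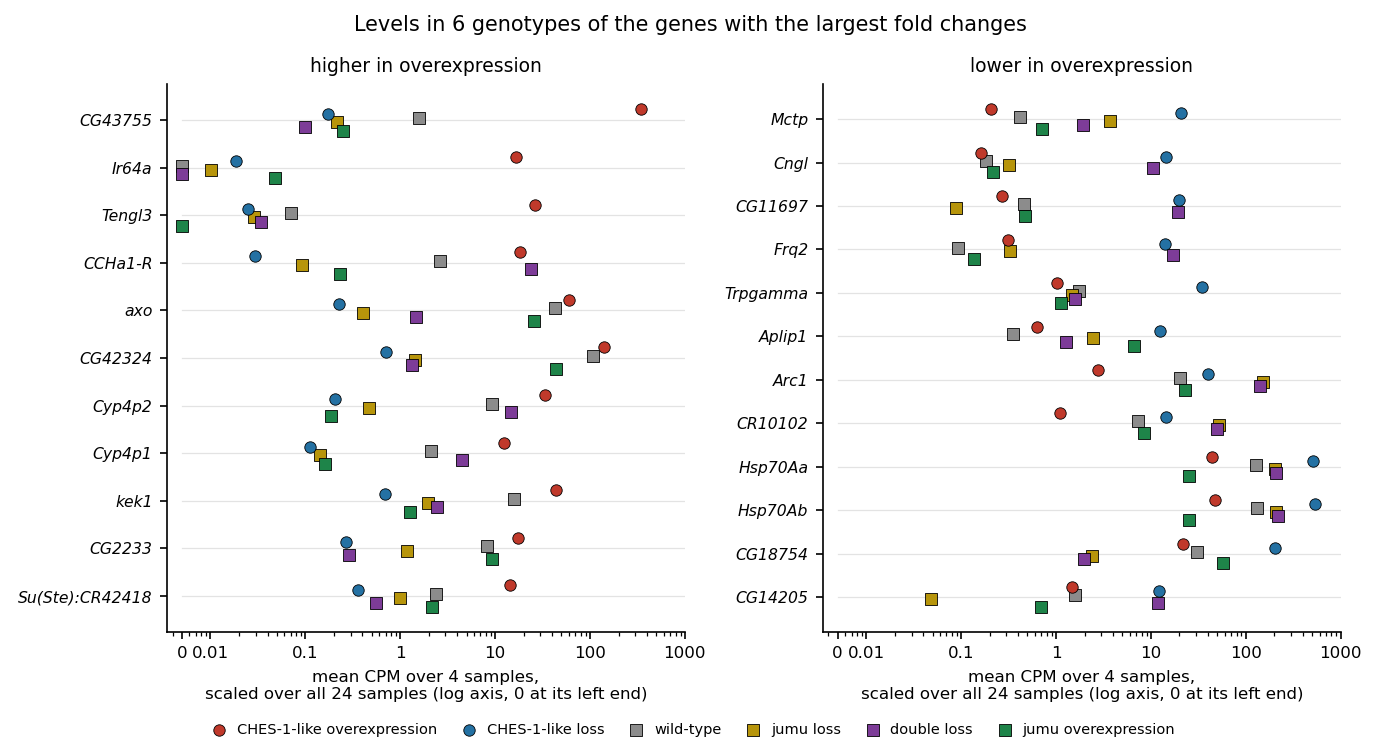
Mean CPM of 4 samples in each of 6 genotypes, scaled over all 24 samples, on a log axis whose left end stands for 0 (circles, the 2 groups compared, squares, the other genotypes), for the 11 genes besides *CHES-1-like* with the largest higher (left) and the 12 with the largest lower (right) fold changes. *CG43755*, *Ir64a* and *Tengl3* are high in CHES-1-like overexpression and average below 2 CPM in the other 5 genotypes, whereas *axo* and *CG42324* are also high in wild-type.

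The genes with the largest difference in CPM were not those with the largest fold changes. On the lower side these were led by *CR40641* and *CR40640* and also included *CR41607*, 3 abundant transcripts without a known gene product. In this order they had 6438 ± 629, 2990.2 ± 205 and 933 ± 195 CPM in overexpression, against 13694 ± 3909, 7161 ± 2391 and 2213 ± 272 CPM in loss-of-function. *Ppn*, the large extracellular matrix protein Papilin, had 1353, 1426, 1572 and 1468 CPM in overexpression and 4996, 5190, 5239 and 5152 CPM in loss-of-function (log2FC −1.82, SE 0.10, FDR 1.3e-09). *Act5C*, a cytoplasmic actin, had 895 ± 42.8 CPM in overexpression and 2035 ± 79.3 CPM in loss-of-function, and the spliceosomal RNA *snRNA:U2:34ABa*, one of several near-identical copies, had 1459 ± 186 and 4179 ± 531 CPM in the same order of genotypes. Of the higher genes *vig*, an RNA-binding protein found in the RNA interference complex, had 771, 535, 465 and 488 CPM in overexpression and 283, 251, 238 and 233 CPM in loss-of-function (log2FC 1.17, SE 0.14), with replicate 1 above the other 3 in the first group. *blw* and *ATPsynC*, subunits of the mitochondrial ATP synthase, had 307 ± 70.03 and 351 ± 35.0 CPM in overexpression, against 141 ± 18.5 and 175 ± 2.55 CPM in loss-of-function. *bsf*, which stabilizes mitochondrial messenger RNA, had 261 ± 27.2 CPM in overexpression and 106 ± 5.20 CPM in loss-of-function (log2FC 1.30, SE 0.09).

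Of the 3 known cardiac targets of the pair of Fox factors, 1 was lower and 0 higher. *htl* had 49.6, 51.3, 54.0 and 54.3 CPM in overexpression and 51.8, 59.9, 56.0 and 56.6 CPM in loss-of-function, which overlap, and its log2FC of −0.10 (SE 0.07, FDR 0.36) turned positive, at 0.44, with library totals. *fz* had 127 to 139 CPM in overexpression and 105 to 109 CPM in loss-of-function, without overlap (as for 46.8% of all genes), but its log2FC of 0.29 (SE 0.07, FDR 0.0041) stayed below the size required, except with library totals, where it was 0.81. *polo* was lower, at 109 to 117 CPM in overexpression and 179 to 192 CPM in loss-of-function (log2FC −0.71, SE 0.07, FDR 1.0e-06), a call that library totals ended.

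Of 19 transcription factors of cardiac progenitors and the heart, 4 were higher and 5 lower by the relaxed criteria, near the background of 21% and 19.7%, and 9 were higher and 2 lower with library totals. *pnr*, the GATA factor that maintains the cardiac field, had 23.1, 24.9, 26.4 and 24.4 CPM in overexpression and 72.6, 72.4, 73.3 and 76.0 CPM in loss-of-function (log2FC −1.57, SE 0.07, FDR 1.6e-10). It also stood on the Dpp pathway and epidermal lists, among the lower genes of each. *svp*, a nuclear receptor of the ostial heart cells, went the other way, with 86.4, 75.9, 81.8 and 77.9 CPM in overexpression and 40.7, 37.2, 40.3 and 43.1 CPM in loss-of-function (log2FC 0.99, SE 0.08, FDR 4.2e-08). Neither gene showed any overlap between the groups, which held for 46.8% of all genes. *Hand*, a factor of all heart cells, had 6.31 ± 1.12 CPM in overexpression and 2.44 ± 0.441 CPM in loss-of-function (log2FC 1.30, SE 0.16), and *Him*, which keeps muscle progenitors undifferentiated, was higher by a log2FC of 0.62. *tin*, the factor at the top of the cardiac network, had 7.87 ± 1.30 CPM in overexpression and 10.9 ± 0.699 CPM in loss-of-function and did not pass (log2FC −0.45, SE 0.12). It passed as lower without overexpression replicate 3 (−0.56), and its sign turned with library totals, to 0.08. *Rx*, a homeobox gene that the study followed in dividing cardiac progenitors, had 3.12 ± 0.613 CPM in overexpression and 7.37 ± 0.359 CPM in loss-of-function (log2FC −1.21, SE 0.14, FDR 3.8e-06).

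None of the 11 early mesodermal regulators passed in either direction, and 5 of them were separated by group, near the 46.8% of all genes. *twi* had 15.3 to 18.2 CPM in overexpression and 20.5 to 23.6 CPM in loss-of-function, with a log2FC of −0.34 that turned to 0.19 with library totals. *Mef2*, the differentiation factor of all muscle, had 512 ± 55.3 CPM in overexpression and 434 ± 35.0 CPM in loss-of-function (log2FC 0.24, SE 0.10, FDR 0.076), and library totals, which brought it to 0.74, made it pass. With library totals 4 of the 11 were higher and 0 lower. Among the 16 Fox genes that passed the filter, 2 were higher, *CHES-1-like* being one, and 4 lower, against 4 higher and 1 lower with library totals. *fd68A* had 34.4 ± 6.94 CPM in overexpression and 69.5 ± 8.61 CPM in loss-of-function (log2FC −1.02, SE 0.12), and *slp1*, a segmentation gene, was lower by a log2FC of −0.79, a call that library totals ended.

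Muscle genes were divided. Of 27 genes of the contractile apparatus 11 were higher and 3 lower, against 21% and 19.7% of all genes, with a median log2FC of 0.31 against 0.03 over all genes tested. *sls*, the titin-like spring of the sarcomere, had 2280, 1886, 1840 and 1835 CPM in overexpression and 988, 1156, 1137 and 999.97 CPM in loss-of-function (log2FC 0.87, SE 0.11). *bt*, a giant kinase of the thick filament, had 207 ± 47.2 CPM in overexpression and 76.7 ± 6.21 CPM in loss-of-function (log2FC 1.43, SE 0.13), and the embryonic muscle actins *Act57B* and *Act87E* were higher by log2FC of 0.80 and 0.61. Of these 4 genes *sls* and *bt* were highest in overexpression replicate 1. The 3 lower genes were *Act79B* and *Act88F*, actins known chiefly from later muscles, and *TpnC73F*, a troponin C. In this order they had 9.55 ± 1.35, 3.19 ± 0.409 and 12.3 ± 0.0983 CPM in overexpression and 21.4 ± 1.72, 6.41 ± 0.981 and 22.1 ± 0.801 CPM in loss-of-function. With library totals 18 contractile genes were higher and 1, *Act79B*, was lower.

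Genes of earlier muscle steps were counted apart. Of 16 myoblast fusion genes 2 were higher, the adhesion receptor gene *rst* (274 ± 16.6 CPM in overexpression and 171 ± 4.53 CPM in loss-of-function) and the adaptor gene *rols* (117 ± 12.3 and 74.2 ± 6.37 CPM in the same order), and 2 lower, the actin regulators *Arf51F* and *SCAR* (log2FC −0.63 and −0.62). Of 18 founder identity factors 2 were higher and 3 lower, against 21% and 19.7% of all genes, among them *caup* and *slou* with log2FC of −0.73 and −0.56. The call of *slou* was lost without loss-of-function replicate 1 (−0.41). With library totals 9 fusion genes and 6 founder factors were higher and 0 lower. In the visceral mesoderm list 2 of 15 genes were higher and 3 lower, against 9 higher and 2 lower with library totals. *bap*, the homeobox gene that specifies the gut muscle, had 2.79, 3.51, 3.76 and 3.39 CPM in overexpression and 9.76, 10.6, 10.2 and 8.35 CPM in loss-of-function (log2FC −1.50, SE 0.13). *jeb*, the ligand of the receptor tyrosine kinase Alk that marks visceral founder cells, had 11.2 ± 3.20 CPM in overexpression and 32.5 ± 5.20 CPM in loss-of-function (log2FC −1.58, SE 0.16). *fax* was lower by a log2FC of −0.62, not with library totals, and *Con* was higher by 0.50, a call lost when overexpression replicate 1 (0.43), loss-of-function replicate 2 (0.48) or loss-of-function replicate 4 (0.47) was left out.

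Cell division genes were lower in overexpression. Of the 21 genes that the study tied to cardiac progenitor division 18 were lower and 0 higher, with a median log2FC of −1.27 against 0.03 over all genes, and 20 of 21 were separated by group against 46.8% of all genes. The study chose these genes, as genes that *jumu* activates, from its *jumu* loss-of-function and wild-type samples, which are not used here. *pav*, a kinesin of the cytokinetic ring, had 32.0, 33.5, 31.6 and 30.6 CPM in overexpression and 94.4, 92.4, 94.0 and 89.3 CPM in loss-of-function (log2FC −1.54, SE 0.07, FDR 1.6e-10). *barr*, a condensin subunit, *BubR1*, a spindle checkpoint kinase, and *scra*, the anillin of the contractile ring, were lower by log2FC of −1.54, −1.51 and −1.49. *sti*, a citron kinase of cytokinesis, had 84.1 ± 2.04 CPM in overexpression and 229.9 ± 9.07 CPM in loss-of-function. The 3 that did not pass were *Apc2* and *cmet*, with log2FC of −0.42 and −0.48 that became 0.12 and 0.04 with library totals (*cmet* passed as lower without overexpression replicate 1, at −0.52, or loss-of-function replicate 4, at −0.50), and *alphaTub67C*, at 0.303 ± 0.204 CPM in overexpression and 0.192 ± 0.0224 CPM in loss-of-function. With library totals 14 of the 21 were lower and 1 higher, and the median was −0.76.

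Division genes outside that set were examined next. Of 35 further cell cycle genes 21 were lower and 0 higher (median log2FC −0.61), and with library totals 6 were lower and 2 higher (median −0.08). *CycA*, an S- and M-phase cyclin, had 132, 131, 126 and 129.8 CPM in overexpression and 324, 307, 321 and 325 CPM in loss-of-function (log2FC −1.30, SE 0.08, FDR 1.7e-09). *CycB* was at 100.4 ± 2.58 CPM in overexpression and 249.6 ± 7.56 CPM in loss-of-function, and the condensin gene *Cap-G* at 59.2 ± 2.40 and 149 ± 5.66 CPM in the same order. *borr* and *sub*, which act in the chromosomal passenger complex and the central spindle, were lower by log2FC of −1.55 and −1.48. *Top2*, the topoisomerase that untangles chromosomes, was lower by −0.79, a call that library totals ended. Of 9 kinetochore genes outside the set of the study, a list added after their values had been seen, 7 were lower and 0 higher, and 5 were lower and 0 higher with library totals. *Nnf1a* had 1.69, 2.20, 1.94 and 2.73 CPM in overexpression and 13.2, 16.3, 13.2 and 15.4 CPM in loss-of-function (log2FC −2.72, SE 0.14), *Kmn1* was lower by −2.18, and *Spc105R*, the scaffold of the outer kinetochore, had 53.8 ± 7.48 CPM in overexpression and 119.6 ± 7.17 CPM in loss-of-function. *Kmn1* overlaps *CG11699* and lies on the X close to *CG11697*. For *Kmn1* too the deficiency chromosome and the loss of CHES-1-like cannot be told apart. All 111 genes for replication-dependent histones had a negative log2FC and 106 were lower, with a median of −1.15, and 60 were lower and 0 higher with library totals. *His2B:CG33908* had 493 ± 40.5 CPM in overexpression and 1121 ± 39.3 CPM in loss-of-function, though the histone genes are near-identical repeats among which reads cannot be assigned, and they are not independent of each other.

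**Figure D4:**
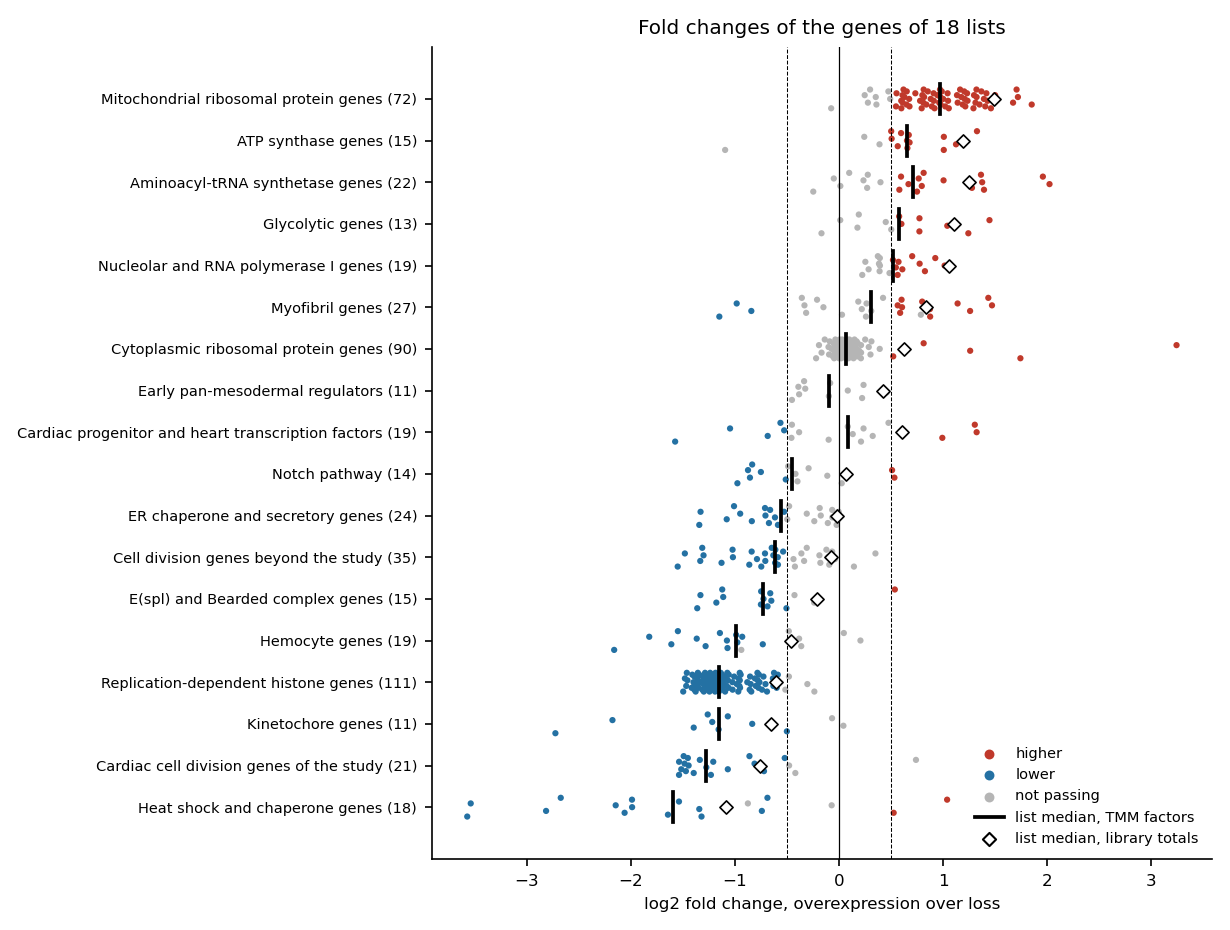
Log2 fold change of each gene in 18 lists, with red for higher, blue for lower and grey for genes that did not pass, black bars for the list median with TMM factors and diamonds for the median with library totals. The medians run from 0.97 for mitochondrial ribosomal proteins to −1.59 for heat shock genes, and library totals move each to the right, which brings those of the Notch pathway list, at −0.45, and of the pan-mesodermal list, at −0.10, above 0.

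Hemocyte genes, those of the blood cells that arise from head mesoderm, were lower as well. Of 19 that passed the filter 13 were lower and 0 higher, their median log2FC was −0.99, and their summed level was 2456 to 2725 CPM in overexpression and 6947 to 7271 CPM in loss-of-function, most of it *Ppn*. With library totals 8 were lower and 1 higher. *srp*, the GATA factor that founds the lineage, had 124, 108, 122 and 107 CPM in overexpression and 261, 237, 265 and 255 CPM in loss-of-function (log2FC −1.14, SE 0.08, FDR 2.1e-08). *gcm* and *gcm2*, the paired factors needed for plasmatocytes and, for glia, in the nervous system, had 22.5 ± 1.43 and 1.54 ± 0.4996 CPM in overexpression, against 68.4 ± 6.25 and 7.31 ± 0.603 CPM in loss-of-function. *Pxn*, a peroxidase secreted by hemocytes, was lower by a log2FC of −0.93, or −0.38 and no longer passing with library totals. Whether hemocytes were fewer or expressed less in the overexpression samples was not tested.

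Basement membrane and matrix genes went both ways, with 3 of 20 higher and 7 lower, and 8 higher and 4 lower with library totals. *Cg25C*, the alpha 1 chain of collagen IV, had 66.4, 87.1, 101 and 91.7 CPM in overexpression and 225, 235, 231 and 230.4 CPM in loss-of-function (log2FC −1.41, SE 0.11). *LanB2*, a laminin chain, had 511 ± 19.2 CPM in overexpression and 762 ± 36.0 CPM in loss-of-function, a call that library totals ended. *Mp*, a collagen of the XV/XVIII type, had 4.18 ± 0.789 CPM in overexpression and 0.104 ± 0.0895 CPM in loss-of-function (log2FC 5.15, SE 0.33). *prc*, the heart matrix protein Pericardin, had 3.20, 4.76, 4.72 and 4.54 CPM in overexpression and 1.07, 1.19, 1.37 and 1.35 CPM in loss-of-function (log2FC 1.81, SE 0.18). The higher matrix genes named here averaged at most 4.30 CPM in overexpression (*prc*).

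The heat shock and chaperone genes showed the most negative median of the lists. Of 18 that passed the filter 14 were lower and 2 higher, with a median log2FC of −1.59, or −1.08 with library totals. *Hsp70Aa* had 41.7, 33.95, 36.9 and 36.8 CPM in overexpression and 462, 431, 443 and 436 CPM in loss-of-function (log2FC −3.57, SE 0.09, FDR 1.2e-13), and its near-identical copy *Hsp70Ab* had 39.8 ± 2.01 CPM in overexpression and 462 ± 9.33 CPM in loss-of-function. Since reads of the Hsp70 copies may be shared out among them, single copies are uncertain. *Hsp70Ba* had 401, 191, 202 and 195 CPM in overexpression and 1063, 960.1, 947 and 949 CPM in loss-of-function, with replicate 1 high in both groups. *Hsp26*, a small heat shock protein, had 6.14 ± 1.00 CPM in overexpression and 44.0 ± 3.95 CPM in loss-of-function (log2FC −2.81, SE 0.11). The 2 higher genes were the mitochondrial chaperonin *Hsp60*, at 145, 216, 267 and 254 CPM in overexpression and 84.6, 113, 117 and 115 CPM in loss-of-function (log2FC 1.04, SE 0.16), and *Hsp83*, the cytosolic Hsp90, with a log2FC of 0.53 that fell just short when loss-of-function replicate 1 (0.50) or overexpression replicate 4 (0.49) was left out.

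Genes of the endoplasmic reticulum and secretion, a list added after the values had been seen, were lower too, 13 of 24 with 0 higher and a median log2FC of −0.56, and 3 lower and 2 higher with library totals. *Hsc70-3*, the lumenal chaperone BiP, had 389, 351, 345 and 339.9 CPM in overexpression and 986, 838, 909.8 and 876 CPM in loss-of-function (log2FC −1.34, SE 0.09, FDR 1.0e-08). The disulphide isomerases *Pdi* and *ERp60* had 353 ± 56.9 and 228 ± 19.0 CPM in overexpression, against 888 ± 66.6 and 481 ± 18.005 CPM in loss-of-function. *Crc*, calreticulin, was lower by a log2FC of −0.66 and *CrebA*, the transcription factor of secretory capacity, by −0.95, and neither passed with library totals.

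With TMM factors 11 of 14 Notch pathway genes and 14 of 15 genes of the E(spl) and Bearded complexes had a negative log2FC, beside 5910 of all 12234 genes tested. Of 14 pathway genes 6 were lower and 2 higher, against 0 lower and 3 higher with library totals. The receptor gene *N* had 303, 289, 294 and 286 CPM in overexpression and 487, 567, 531 and 504 CPM in loss-of-function (log2FC −0.83, SE 0.08, FDR 7.3e-07), the co-repressor gene *gro* was lower by −0.98, and the receptor-cleaving protease gene *kuz* by −0.75, 3 calls that library totals ended. In the E(spl) and Bearded complexes, whose small genes respond to Notch, 12 of 15 were lower and 1 higher (median log2FC −0.73), and 5 lower and 1 higher with library totals (median −0.21). *E(spl)m4-BFM* had 41.6, 36.9, 35.4 and 35.4 CPM in overexpression and 100.3, 84.8, 97.7 and 91.5 CPM in loss-of-function (log2FC −1.33, SE 0.08). *BobA* and *Ocho*, of the Bearded family, were at 21.6 ± 2.66 and 41.2 ± 4.74 CPM in overexpression, against 55.7 ± 2.98 and 89.9 ± 4.23 CPM in loss-of-function. *Tom*, the most abundant of these genes, had 292 ± 13.5 CPM in overexpression and 414 ± 13.0 CPM in loss-of-function, a log2FC of −0.50 on the edge of the criteria that became 0.02 with library totals and −0.48 without overexpression replicate 3 or −0.47 without loss-of-function replicate 1. The gene that was higher, *E(spl)m6-BFM*, had a log2FC of 0.54 that dropped below the criteria without overexpression replicate 1 (0.33) or without loss-of-function replicate 2 (0.44).

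Most genes of the mitochondrial ribosome were higher. Of 72 mitochondrial ribosomal protein genes that passed the filter 64 were higher and 0 lower, against 21% and 19.7% of all genes, with a median log2FC of 0.97 and separated groups for 64 (46.8% of all genes), on a list added after the values had been seen. *mRpS30* had 78.7, 82.4, 87.7 and 88.5 CPM in overexpression and 42.7, 42.0, 45.0 and 43.5 CPM in loss-of-function (log2FC 0.96, SE 0.07, FDR 3.3e-08). *mRpS9* had 42.7 ± 0.636 CPM in overexpression and 18.4 ± 1.17 CPM in loss-of-function, and *mRpS18C* was higher by a log2FC of 1.85. By contrast 85 of 90 cytoplasmic ribosomal protein genes did not pass, with a median log2FC of 0.07, and 5 were higher. With library totals 82 of the cytoplasmic and 71 of the mitochondrial ribosomal protein genes were higher. Transcripts of the mitochondrial genome gave 2 higher and 0 lower of 29, with a median log2FC of 0.13, and 14 higher with library totals.

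None of the members of the other metabolic lists was lower, with TMM factors or with library totals. Of 15 ATP synthase genes 12 were higher, *ATPsynbeta* only narrowly, with 336, 441, 465 and 493 CPM in overexpression and 254, 345, 314 and 310.0 CPM in loss-of-function (log2FC 0.51, SE 0.12). Its call was lost without loss-of-function replicate 1 (0.44) or without overexpression replicate 2 (0.50), replicate 3 (0.47) or replicate 4 (0.44). Of 22 aminoacyl-tRNA synthetase genes, which charge transfer RNA with amino acids, 14 were higher, with the mitochondrial *Aats-ala-m* at 26.4 ± 1.90 CPM in overexpression and 6.81 ± 0.585 CPM in loss-of-function, and *Aats-met* at 12.3, 15.5, 15.7 and 15.1 CPM in overexpression and 3.69, 4.596, 2.80 and 3.54 CPM in loss-of-function. Of 19 genes of the nucleolus and RNA polymerase I, 10 were higher. *RpI1*, the largest subunit of that polymerase, had 259, 259, 256 and 263 CPM in overexpression and 127, 129, 130.5 and 128 CPM in loss-of-function (log2FC 1.01, SE 0.07, FDR 1.8e-08), and *Nop60B*, a pseudouridine synthase of ribosomal RNA, was higher by 0.56. These 3 lists were also added after their values had been seen. Of 13 glycolytic genes 7 were higher, with a median log2FC of 0.58. *Eno*, enolase, had 115, 149, 167 and 167 CPM in overexpression and 50.1, 55.7, 55.9 and 58.2 CPM in loss-of-function (log2FC 1.45, SE 0.11), *ImpL3*, lactate dehydrogenase, had 40.6 ± 1.42 CPM in overexpression and 17.2 ± 0.647 CPM in loss-of-function, and *Hex-A*, hexokinase, was higher by 1.04.

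**Figure D5:**
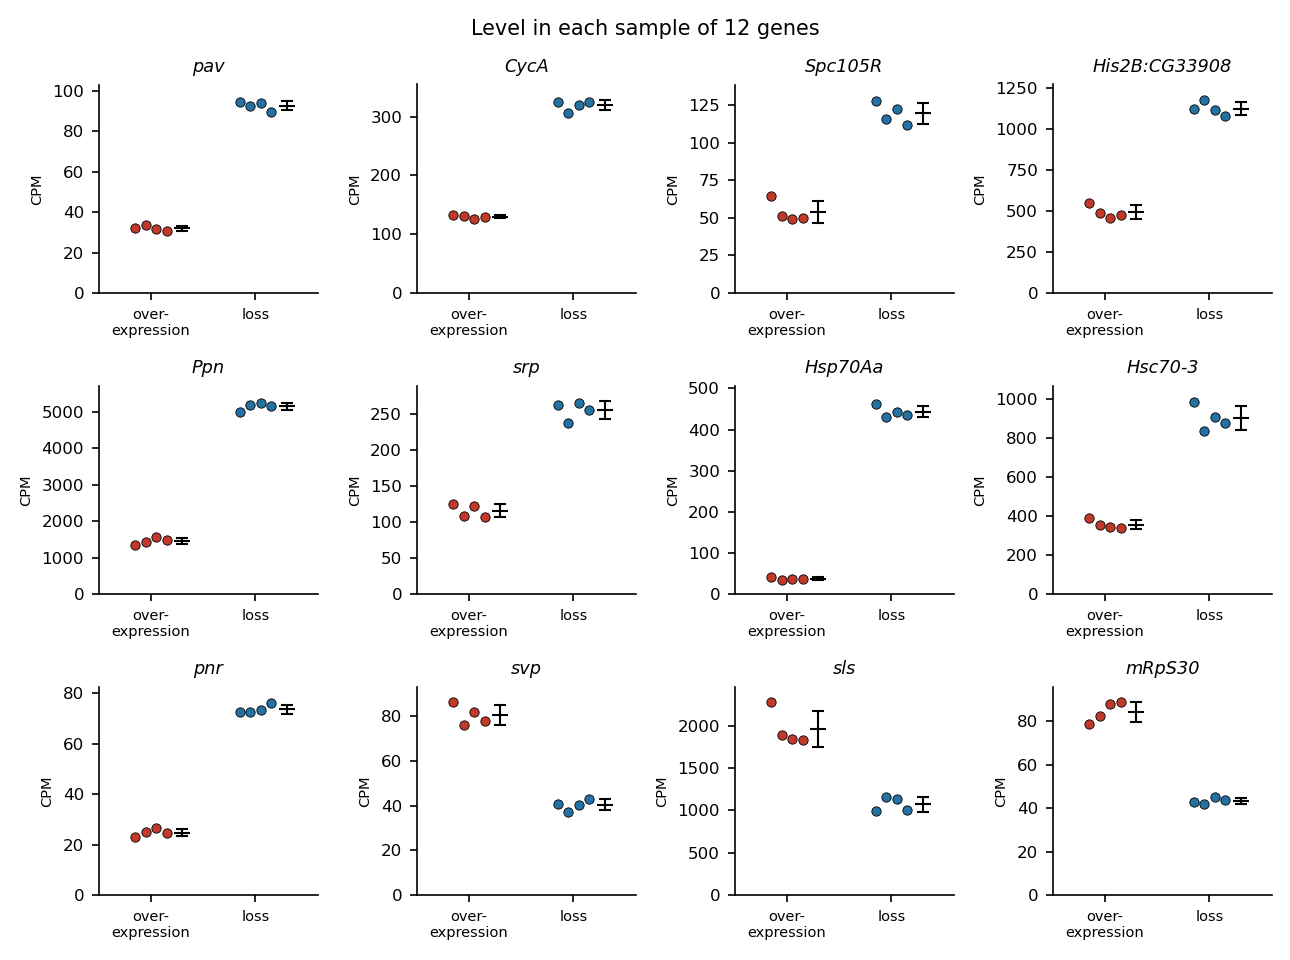
CPM in each sample of 12 genes, with overexpression (red) left of loss-of-function (blue) on axes that start at 0, and with mean ± SD of 4 samples beside the points. In each panel the 2 genotypes do not overlap, from *pav* at 30.6 to 33.5 CPM in overexpression and 89.3 to 94.4 CPM in loss-of-function to *mRpS30* at 78.7 to 88.5 CPM in overexpression and 42.0 to 45.0 CPM in loss-of-function. All 12 genes were picked from those that passed the relaxed criteria, and 46.8% of all genes tested were separated in this way.

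Calls in 3 other signalling pathways went both ways, beside 21% higher and 19.7% lower over all genes. By sign, 11 of 16 fibroblast growth factor, 20 of 27 Wnt and 12 of 17 Dpp pathway genes had a negative log2FC. Over all 12234 genes tested 5910 did. Of 16 genes of the fibroblast growth factor pathway 2 were higher and 2 lower, and 6 higher and 0 lower with library totals. *ths*, a ligand of Heartless, had 20.4, 12.7, 11.7 and 13.8 CPM in overexpression and 8.53, 5.87, 6.51 and 7.05 CPM in loss-of-function (log2FC 1.02, SE 0.16), and *pnt*, the nuclear effector of the pathway, had 91.5 ± 11.9 CPM in overexpression and 162 ± 9.07 CPM in loss-of-function (log2FC −0.82, SE 0.09). The groups did not overlap for either gene, which held for 46.8% of all genes. Of 27 Wnt pathway genes 3 were higher and 4 lower, and 7 higher and 1 lower with library totals. *arm*, the beta-catenin of the fly, had 311, 350.2, 398 and 373 CPM in overexpression and 657, 709, 711 and 702 CPM in loss-of-function (log2FC −0.96, SE 0.09), and the co-receptor gene *arr* was lower by −1.03. Of 17 Dpp pathway genes 2 were higher and 6 lower, and 5 higher and 1 lower with library totals. *Mad*, the Smad that carries the signal, had 38.0 ± 2.10 CPM in overexpression and 67.7 ± 4.15 CPM in loss-of-function, and the ligand gene *gbb* 56.6 ± 5.99 and 100.9 ± 5.27 CPM in the same order. Library totals ended the calls of *pnt*, *arm*, *arr*, *Mad* and *gbb*.

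Of 13 Hox genes and cofactors 1 was higher and 4 lower, beside 21% and 19.7% of all genes. With library totals 4 of them were higher and 1 lower. *Ubx* had 625, 491, 391.8 and 419.7 CPM in overexpression and 1157, 858, 848 and 912 CPM in loss-of-function (log2FC −0.97, SE 0.14, no longer passing with library totals). *Abd-B*, which patterns the last abdominal segments, had 78.2, 52.9, 51.1 and 50.7 CPM in overexpression and 43.8, 38.6, 42.8 and 36.0 CPM in loss-of-function, and its log2FC of 0.53 fell below the criteria without overexpression replicate 1 (0.36) or without loss-of-function replicate 4 (0.47). Of 17 hedgehog and segmentation genes 0 were higher and 2 lower, against 3 higher and 1 lower with library totals. Of 7 JAK/STAT genes 0 were higher and 1 lower, against 1 higher and 0 lower with library totals. Among 12 regulators of apoptosis 2 were higher and 7 lower, with 2 in each direction with library totals. *Dark*, the apoptosome protein, had 22.2 ± 1.064 CPM in overexpression and 54.7 ± 2.72 CPM in loss-of-function (log2FC −1.31, SE 0.07), the caspase inhibitor *Diap1* was lower by −0.60 but not with library totals, and *Diap2* was higher by 0.62.

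Markers of cell types other than mesoderm were examined because the sort could carry some of them. The shares over all genes were 21% higher and 19.7% lower. Of 19 neural markers 7 were higher and 3 lower, their summed level was 361 to 571 CPM in overexpression and 386 to 441 CPM in loss-of-function, and 12 were higher and 1 lower with library totals. *SoxN*, a factor of the early neuroectoderm, had 23.5 ± 2.37 CPM in overexpression and 70.8 ± 4.97 CPM in loss-of-function. *fne*, an RNA-binding protein of neurons, had 36.8, 21.3, 18.4 and 19.6 CPM in overexpression and 11.1, 6.47, 10.5 and 8.98 CPM in loss-of-function (log2FC 1.33, SE 0.20), *futsch* was higher by 1.02, and *Syt1*, a synaptic vesicle protein, had 1.51 ± 0.231 CPM in overexpression and 0.362 ± 0.217 CPM in loss-of-function. Of 7 glial markers 5 were lower and 1 higher, and 4 lower and 1 higher with library totals. The glial genes *moody* and *nrv2* had 39.5 ± 0.850 and 27.5 ± 1.59 CPM in overexpression, against 110.1 ± 6.26 and 72.0 ± 6.16 CPM in loss-of-function, and the summed glial level was 343 to 360.1 CPM in overexpression and 568 to 598 CPM in loss-of-function. *gcm* stood on both the glial and the hemocyte list, and *SoxN* on both the neural and the epidermal list. *pnr* stood on the epidermal, the cardiac and the Dpp pathway list.

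Epidermal markers gave 1 higher and 5 lower of 15, with summed levels of 299 to 352 CPM in overexpression and 459 to 499 CPM in loss-of-function. Endodermal markers gave 0 higher and 2 lower of 9, at 133 to 158 and 261 to 299 CPM in the same order, and those of fat body and amnioserosa 1 higher and 3 lower of 8, at 262 to 300.1 and 457 to 485 CPM. *srp*, also on the hemocyte list, stood on both of these lists as 1 of the lower genes, and with 115 ± 9.09 CPM in overexpression and 255 ± 12.5 CPM in loss-of-function it made up most of the endodermal sum. Tracheal and salivary gland markers gave 0 higher and 5 lower of 11, *trh*, the founding tracheal factor, with 5.53 ± 0.913 CPM in overexpression and 12.2 ± 1.18 CPM in loss-of-function (log2FC −1.13, SE 0.12). Germline and maternal genes gave 1 higher and 8 lower of 12, at summed levels of 242 to 257 CPM in overexpression and 232 to 237 CPM in loss-of-function. With library totals the higher and lower counts became 3 and 2 for epidermal, 1 and 1 for endodermal, 2 and 1 for fat body and amnioserosa, 3 and 1 for tracheal and salivary, and 4 and 4 for germline and maternal genes. No marker on any of these 7 lists was at 0 in all 8 samples. The part that other cell types take in the differences above was not tested.

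Small RNA genes and gene families at low level were counted in the same way, beside 21% higher and 19.7% lower over all genes. Of 29 spliceosomal snRNA genes, listed after their values had been seen, 14 were lower and 0 higher (8 and 1 with library totals), *snRNA:U5:23D* with 572, 251, 196 and 170.4 CPM in overexpression and 776, 607, 595 and 456 CPM in loss-of-function. Small nucleolar and Cajal body RNA genes, counted without the snRNA genes, had 59 of 248 higher and 29 lower, against 21% and 19.7% of all genes, and 126 higher and 2 lower with library totals. Of the listed genes of this kind 254 overlap another annotated feature. Among families whose products belong to later development, cuticle protein genes had 14 of 47 higher and 3 lower (27 and 1 with library totals). Chitinase genes had 2 of 8 higher and 2 lower (3 and 1 with library totals), with *Cht3* at 102, 89.7, 85.9 and 89.01 CPM in overexpression and 14.04, 11.0, 9.96 and 14.3 CPM in loss-of-function (log2FC 2.87, SE 0.11). Osiris genes had 7 of 11 higher and 1 lower under either scaling at summed levels of only 7.34 to 8.86 CPM in overexpression and 3.90 to 4.49 CPM in loss-of-function, *Osi14* with 121 counts in overexpression and 1 in loss-of-function, a ratio of 80.9 (14.2 to 3220). Methuselah-like receptor genes had 4 of 13 higher and 0 lower, *mthl8* with 5.55 ± 0.961 CPM in overexpression and 0.211 ± 0.105 CPM in loss-of-function. Cytochrome P450 genes had 13 of 55 higher and 23 lower, and 19 higher and 13 lower with library totals, *Cyp12d1-d* with 2 counts in overexpression and 49 in loss-of-function, a ratio of loss-of-function over overexpression of 36.7 (9.62 to 311). Of 36 proteasome genes 2 were higher and 3 lower, against 14 higher and 1 lower with library totals.

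Genes of sex determination and dosage compensation were checked because the deficiency lies on the X. Of 11 that passed the filter 2 were higher and 1 lower, against 5 higher and 0 lower with library totals. *roX2*, a male-specific RNA that coats the X, had 62.8, 80.3, 77.3 and 89.1 CPM in overexpression and 38.5, 56.9, 56.1 and 53.1 CPM in loss-of-function (log2FC 0.60, SE 0.12), a call lost without loss-of-function replicate 1 (0.50). *dsx* had 4.57 ± 0.369 CPM in overexpression and 1.91 ± 0.512 CPM in loss-of-function (log2FC 1.16, SE 0.18), and *msl-3* was lower by −0.61, though not with library totals. Over chromosome arms, 20.6% of 1905 genes on the X were higher and 19.4% lower, within the range of the major autosomal arms, where 19.1% to 21.5% were higher. Chromosome 4 had the largest share of the arms, with 36 of 102 genes or 35.3% higher, 2 lower and a median log2FC of 0.39. Of those 36, 33 overlap another annotated feature, transposon insertions included, as do 6561 of all 12234 genes tested. *bt* and *ATPsynbeta*, named above, are among the higher genes of chromosome 4. Gene length moved with the result, the median log2FC being 0.10 and −0.08 in the first and last of 4 equal groups of genes ordered from short to long total exon length. Its part in the other results was not tested.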

How the data were processed

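Libraries were made by the authors from total RNA of sorted cells with a stranded kit, and the reads were mapped to the Release 6 genome. The authors deposited whole-number counts per gene for 17476 genes without normalization. HTSeq and SAMtools appear in the submitters' processing notes, and whether counting used the strand is not given in the sources used here, so genes that overlap another gene are uncertain. Groups and replicate numbers were taken from the sample labels, and no column was left unmapped.

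Positions came from the Ensembl annotation of Release 6, which lacks 277 of the genes. The 8 samples were fitted in R 4.3.3 with edgeR 4.0.16: TMM factors, quasi-likelihood test on the 15872 genes with at least 1 count, Benjamini-Hochberg adjustment over all 17476 genes, and exclusion of the 30% with the lowest average expression, which left 12234. FDR denotes this adjusted p. Standard errors were derived from the F statistics. The fit was tested on simulated data with 200 changed genes, as many higher as lower, far fewer than were called here. The simulated counts took the TMM-scaled totals as true, so they cannot test the choice of scaling. No pair of samples within a group differed by less than sampling noise.

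Genes named were *CHES-1-like*, *jumu* and genes within 30 kb, the 12 largest changes per direction among separated stringent genes at 10 CPM or more, the 6 per direction with the largest absolute difference among the same genes apart from ribosomal RNA genes, *htl*, *fz*, *polo* and *Rx*, and examples from each list, taken from the up to 3 by level and up to 3 by change among its members that passed. *Act79B*, *Act88F*, *TpnC73F*, *Hsp60*, *E(spl)m6-BFM*, *Apc2*, *cmet*, *alphaTub67C*, *twi*, *Mef2* and *tin* are named outside this rule, the first 8 after their values were seen. Lists and members were chosen with earlier results of these data known, and the lists of kinetochore, small nucleolar RNA, cuticle protein and chitinase genes were redrawn after their values were seen. Counting intervals (95%, Clopper-Pearson) and floors hold the error of counting alone, as reads were not tied to single molecules. Promoter sequences were not analysed here.

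Alternatives were DESeq2 1.42.0, RLE factors, library totals, totals without ribosomal RNA genes, no filter or filterByExpr, a stricter FDR of 0.05, a joint fit of the 24 samples, a block for replicate number, and fits that leave out 1 sample each. Totals of protein-coding genes were added after seeing the data.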

Additional observations from a re-analysis of the deposited data

Results flagged for a closer look

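In each group of 4 samples the highest or lowest value of a named gene was compared with its nearest neighbour by Dixon's criterion on log2 CPM (prior count 2). Of 320 such groups 33 had a sample that stood apart, where about 16, 1 in 20, would do so by chance. Overexpression replicate 1 lay above the others with log2 CPM of 6.29 for *Abd-B* (5.67 to 5.73 in the other 3), 8.65 for *Hsp70Ba* (7.58 to 7.66 in the other 3), 9.21 for *Mef2* (8.89 to 8.94 in the other 3), 6.02 for *Spc105R* (5.62 to 5.68 in the other 3), 3.90 for *Su(Ste):CR42418* (3.46 to 3.53 in the other 3), 6.31 for *ct* (5.76 to 5.79 in the other 3), 5.44 for *kek1* (5.10 to 5.12 in the other 3), 6.77 for *pnt* (6.397 to 6.43 in the other 3) and 11.15 for *sls* (10.84 to 10.88 in the other 3). Overexpression replicate 1 lay below the others with log2 CPM of 3.63 for *Aats-met* (3.92 to 3.97 in the other 3), 4.14 for *BobA* (4.51 to 4.53 in the other 3), 2.24 for *Hsp26* (2.71 to 2.79 in the other 3), 3.44 for *NELF-B* (4.10 to 4.23 in the other 3), 5.10 for *Ocho* (5.41 to 5.47 in the other 3) and 1.70 for *prc* (2.20 to 2.27 in the other 3). Overexpression replicate 2 lay below the others with log2 CPM of 3.09 for *futsch* (3.35 to 3.36 in the other 3). Overexpression replicate 3 lay above the others with log2 CPM of 4.63 for *mRpS18C* (4.30 to 4.34 in the other 3). Loss-of-function replicate 1 lay above the others with log2 CPM of 10.05 for *Hsp70Ba* (9.89 to 9.91 in the other 3) and 6.53 for *jumu* (6.43 to 6.44 in the other 3). Loss-of-function replicate 1 lay below the others with log2 CPM of 4.24 for *Act79B* (4.46 to 4.50 in the other 3), 3.11 for *CG14205* (3.44 to 3.51 in the other 3), 6.403 for *Hsp60* (6.83 to 6.87 in the other 3), 4.44 for *NELF-B* (4.82 to 4.88 in the other 3), 9.62 for *Pdi* (9.84 to 9.86 in the other 3) and 9.36 for *arm* (9.46 to 9.47 in the other 3). Loss-of-function replicate 2 lay above the others with log2 CPM of −2.93 for *Osi14* (−4.45 in each of the other 3). Loss-of-function replicate 2 lay below the others with log2 CPM of −2.93 for *CG2233* (−1.71 to −1.52 in the other 3), 2.63 for *E(spl)m6-BFM* (3.15 to 3.26 in the other 3), 0.87 for *Hand* (1.37 to 1.47 in the other 3), 3.95 for *Mctp* (4.20 to 4.24 in the other 3) and −1.37 for *kek1* (−0.52 to −0.41 in the other 3). Loss-of-function replicate 3 lay above the others with log2 CPM of −3.17 for *Ir64a* (−4.45 in each of the other 3). Loss-of-function replicate 4 lay below the others with log2 CPM of 7.36 for *rst* (7.43 to 7.44 in the other 3). Overexpression replicate 1 was the sample named most often, and it is also the one whose share of ribosomal RNA and TMM factor differed from the other 3. Its part in the results was measured by leaving it out. The values of *Ir64a*, *Osi14* and *CG2233* in loss-of-function rest on very few counts.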

How the results depend on the processing

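Library totals in place of TMM factors moved the balance of directions most. They gave 3204 higher and 353 lower genes by the stringent criteria and 5585 and 873 by the relaxed criteria, 90.1% and 86.5% of the calls higher, against 55.6% and 51.6% with TMM factors. Totals without ribosomal RNA genes gave 2447 and 523 (stringent) and 4427 and 1193 (relaxed), and totals of protein-coding genes, tried after seeing the data, 1638 and 882 (stringent) and 3030 and 1948 (relaxed). With library totals the log2FC changed sign for *Apc2* (0.12), *Rab39* (0.25), *Tom* (0.020), *cmet* (0.041), *htl* (0.44), *tin* (0.080) and *twi* (0.19), while 27 of 157 named genes lost their call and 6 gained one. Without ribosomal RNA genes it changed sign for *Rab39* (0.080), *htl* (0.26) and *twi* (0.016), and with protein-coding totals for *htl* (0.0084). The cause was not tested.

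DESeq2, RLE factors, a single fit of all 24 samples, filterByExpr, no filter and an FDR below 0.05 kept each of the 4 counts within 1.5 times. Under DESeq2, RLE factors and the 24-sample fit, *Tom* was the only named gene to lose its call. Under filterByExpr *Cyp12d1-d* and 6 named genes that had not been called were left untested. Named genes were not listed for the settings without a filter and with an FDR below 0.05. Leaving out 1 sample at a time gave 1233 to 1455 higher and 1019 to 1095 lower stringent genes, 2342 to 2679 higher and 2268 to 2507 lower relaxed genes, and a log2FC of *CHES-1-like* of 10.34 to 10.82. In these fits 8 named genes lost their call, 3 gained one and 0 changed sign. Samples with the same replicate number deviated together only weakly (correlations of 0.19, 0.026, 0.028 and 0.17), so the numbers were not taken to pair the samples. With the replicate number as a block, 1339 genes were higher and 1083 lower (stringent), 2555 and 2449 (relaxed), and *ATPsynbeta* lost its call (0.50). The floor of 3 counts stood at 0.0373 to 0.137 CPM per overexpression sample and at 0.0476 to 0.255 CPM per loss-of-function sample, which limits fold changes of genes near 0 in one group.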
